A study of Drosophila melanogaster with 3 samples.

Results

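Of 10553 reproducible Scalloped peaks in fly embryos, 315 had their summit at the start of a gene that encodes no protein and at no protein-coding start. A summit was taken when it lay within 500 bp of an annotated transcription start site (TSS) of a noncoding gene and over 500 bp from every protein-coding TSS. Positions alone chose these summits, not their strength or sequence. They lay in 288 peak intervals, with 61 of 315 (19.4%, exact 95% interval 15.1 to 24.2) in an interval of at least 2 IDR summits, against 16.7% of all peaks, and 276 different noncoding genes were the nearest to a summit. A further 200 summits lay near a noncoding TSS but also within 500 bp of a protein-coding TSS and were set aside. For the noncoding limit, the summits just inside lay 500, 499 and 496 bp from a TSS with signal values of 745, 415 and 379, and those just outside lay 501, 503 and 504 bp away with 563, 3437 and 400. For the protein-coding limit, the summits just kept lay 518, 534 and 543 bp from a TSS and those just dropped 500, 497 and 487 bp.

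Scalloped (sd) is the fly member of the TEA-domain transcription factors, which read the core site CATTCC. It has little activating power alone and works with partners, among them Yorkie, the growth coactivator restrained by Hippo signalling, and Vestigial in wing and muscle. Genes that encode no protein fall into several kinds. Long noncoding RNAs (lncRNAs) and antisense RNAs are mostly RNA polymerase II transcripts, and some are the primary transcripts from which microRNAs are cut. Transfer RNAs (tRNAs), which carry amino acids to the ribosome, are made by RNA polymerase III from promoters inside the gene. Small nucleolar RNAs (snoRNAs), which guide the modification of ribosomal RNA, are mostly cut from introns of other transcripts. For tRNAs, snoRNAs and microRNAs, the annotated start is therefore the 5' end of the processed RNA or hairpin, which need not be where transcription begins.

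The embryos were whole animals of mixed sex, 4 to 20 h old, from a transgenic line that stably expresses sd with GFP at its C terminus, and the chromatin was precipitated with an anti-GFP antibody. All 3 samples are biological replicates of that 1 group, with separate biosamples in the labels, so no conditions were compared. Whole embryos mix all tissues, so a summit does not tell which cells held the protein there. The list used had passed the authors' threshold on irreproducible discovery rate (IDR), a measure of how well peak ranks repeat between samples. Signal values are the authors' own, on a scale that differs between lists, and were used only within a list. The depth behind them is unknown.

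The 200 bases around a summit are where the factor's contact with DNA would be sought. The runs below show 10 of these summits: the strongest lncRNA, pseudogene and antisense RNA summits, the strongest summit holding CATTCC in tandem, and 4 at RNAs of known function. Each is printed 5' to 3' on the strand of its gene, from dm6, with the summit at its middle base. Capitals mark CATTCC or its 1-letter variant AATTCC, read on either strand, so that a site on the other strand appears as GGAATG or GGAATT.

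lncRNA:CR43423 (chr3L:638822-639022, minus strand): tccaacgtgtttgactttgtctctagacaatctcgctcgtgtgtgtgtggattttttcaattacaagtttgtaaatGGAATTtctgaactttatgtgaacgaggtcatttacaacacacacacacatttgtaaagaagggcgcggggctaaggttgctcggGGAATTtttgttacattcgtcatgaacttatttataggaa

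CR33294 (chr3R:4187013-4187213, plus strand): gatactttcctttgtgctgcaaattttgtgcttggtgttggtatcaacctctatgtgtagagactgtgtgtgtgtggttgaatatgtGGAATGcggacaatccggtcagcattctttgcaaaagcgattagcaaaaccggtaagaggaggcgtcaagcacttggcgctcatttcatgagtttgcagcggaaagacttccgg

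lncRNA:CR42719 (chr3L:616526-616726, minus strand): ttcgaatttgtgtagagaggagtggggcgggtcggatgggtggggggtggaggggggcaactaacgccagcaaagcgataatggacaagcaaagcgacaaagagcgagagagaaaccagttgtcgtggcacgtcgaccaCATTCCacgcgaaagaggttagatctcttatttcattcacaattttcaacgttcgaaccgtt

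lncRNA:CR43334 (chr3L:628117-628317, plus strand): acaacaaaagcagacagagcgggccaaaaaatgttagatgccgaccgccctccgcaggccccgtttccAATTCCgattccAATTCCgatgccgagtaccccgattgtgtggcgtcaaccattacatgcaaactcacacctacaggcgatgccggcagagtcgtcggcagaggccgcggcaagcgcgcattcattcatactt

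lncRNA:CR45217 (chr3R:24231243-24231443, minus strand): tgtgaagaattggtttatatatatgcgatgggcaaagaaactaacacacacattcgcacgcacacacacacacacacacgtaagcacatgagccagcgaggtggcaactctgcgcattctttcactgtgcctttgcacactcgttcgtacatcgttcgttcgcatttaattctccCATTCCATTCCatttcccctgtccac

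asRNA:CR45834 (chr3L:1784243-1784443, plus strand): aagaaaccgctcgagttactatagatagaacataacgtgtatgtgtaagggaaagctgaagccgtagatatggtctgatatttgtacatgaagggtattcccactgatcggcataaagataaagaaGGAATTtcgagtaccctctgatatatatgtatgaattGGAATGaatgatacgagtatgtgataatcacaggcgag

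lncRNA:roX2 (chrX:11578921-11579121, plus strand): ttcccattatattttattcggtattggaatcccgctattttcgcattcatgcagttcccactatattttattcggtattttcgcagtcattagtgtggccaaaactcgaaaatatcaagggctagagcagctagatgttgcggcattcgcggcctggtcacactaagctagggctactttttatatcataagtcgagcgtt

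RNaseMRP:RNA (chr3R:23730140-23730340, minus strand): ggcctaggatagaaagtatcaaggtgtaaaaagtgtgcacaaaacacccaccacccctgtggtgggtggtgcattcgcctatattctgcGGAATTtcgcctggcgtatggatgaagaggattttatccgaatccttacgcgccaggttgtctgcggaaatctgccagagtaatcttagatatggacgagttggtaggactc

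mir-ban (chr3L:642132-642332, plus strand): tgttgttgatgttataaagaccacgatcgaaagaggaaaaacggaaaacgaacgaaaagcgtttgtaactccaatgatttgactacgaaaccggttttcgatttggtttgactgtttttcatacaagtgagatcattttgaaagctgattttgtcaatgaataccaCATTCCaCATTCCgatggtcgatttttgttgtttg

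snRNA:U1:95Ca (chr3R:23859557-23859757, minus strand): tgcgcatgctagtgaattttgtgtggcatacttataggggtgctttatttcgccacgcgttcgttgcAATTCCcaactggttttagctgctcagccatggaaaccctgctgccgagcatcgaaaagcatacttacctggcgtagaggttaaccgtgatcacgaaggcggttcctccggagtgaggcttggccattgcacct

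These runs differ in what they hold. The mir-ban run contains the bantam hairpin, and its tandem CATTCC pair begins at 642298, past the hairpin's annotated end at 642288. The CR45217 run has a pair of CATTCC copies that overlap by 1 base, and CR33294 and CR42719 have 1 each. The CR43423 and CR43334 runs have 2 copies of AATTCC and no CATTCC. The roX2 run has neither. The U1 run reads through the start of the U1 RNA.

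By strength, these summits were spread through the whole IDR list, from rank 10 to rank 10545. Their median signal value was 597, against 553 over all IDR peaks, and 177 of 315 (56.2%, 50.5 to 61.7) lay above the list's median. The top 100 held 8 of them (2.54%, 1.10 to 4.94), against 0.948% of all peaks, and the top 1000 held 38 (12.1%, 8.68 to 16.2), against 9.48%. Of the 8 in the top 100, 4 lay around bantam. At protein-coding starts the median signal value was 602, with 1.21% of summits in the top 100 and 12.1% in the top 1000. All such intervals are exact Clopper-Pearson intervals and cover counting error only.

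Most were found in every replicate. A summit within 100 bp was present in all 3 replicate lists for 287 of 315 (91.1%, 87.4 to 94.0), against 91.4% of all IDR peaks, so the share was near the background. The remainder were 27 found in 2 replicates and 1, upstream of lncRNA:CR45355, found in replicate 2 only. With only the top 10553 peaks of each replicate searched, the share was 69.2% (63.8 to 74.3), against 67.4%. The IDR list was itself derived from these samples, so recurrence in them is not independent of it.

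**Figure D1:**
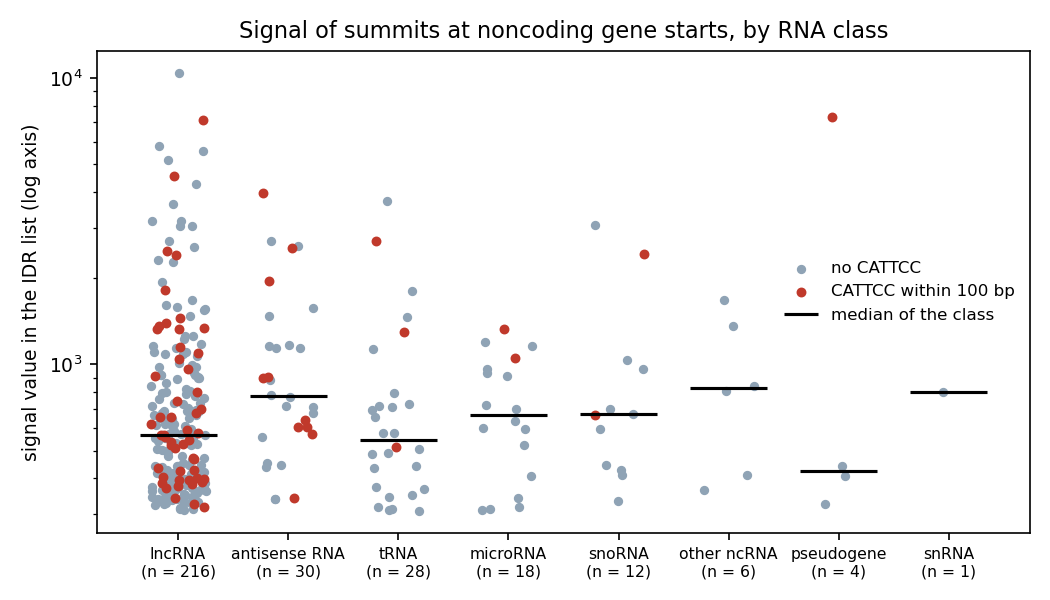
Signal value in the IDR list (log axis) of each of the 315 summits, by the class of the nearest noncoding RNA, with class medians as bars and summits with CATTCC within 100 bp in red. The highest values are in lncRNAs and 1 pseudogene, and the classes overlap over most of their range.

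By RNA class, lncRNAs were the nearest gene for 216 summits, antisense RNAs for 30, tRNAs for 28, microRNAs for 18, snoRNAs for 12, other noncoding RNAs for 6, pseudogenes for 4 and a spliceosomal snRNA for 1. No summit lay at any of the 99 annotated ribosomal RNA genes (0%, 0 to 3.66). How reads that match several places were treated is not known, so this count does not show that the protein was absent there. Over all classes, 302 of 3738 noncoding genes (8.08%, 7.23 to 8.999) had such a summit within 500 bp of a TSS. In the top 10553 peaks of each replicate, the share was 8.05% ± 0.386 (SD, n = 3). Counting summits shared with protein-coding starts as well, 12.8% of noncoding genes had an IDR summit, against 25.6% of 13945 protein-coding genes. The share was highest for tRNA genes, at 13.8% (10.04 to 18.3). It was 9.59% (3.94 to 18.8) for other noncoding RNA genes and 9.52% (8.25 to 10.9) for lncRNA genes. Lower values were seen for microRNA genes (6.92%, 4.15 to 10.7), snoRNA genes (6.69%, 4.01 to 10.4) and antisense RNA genes (5.77%, 3.89 to 8.18). Lower still were snRNA genes (3.1%, 0.0791 to 16.2) and pseudogenes (1.49%, 0.408 to 3.78). This order depends on leaving out summits near protein-coding starts: with any IDR summit counted, the share was 18.3% for tRNA genes, 16.3% (13.2 to 19.8) for antisense RNA genes and 13.6% (12.1 to 15.2) for lncRNA genes. In the replicates, the share was 14.1% ± 2.10 for tRNA genes and 9.48% ± 0.461 for lncRNA genes (SD, n = 3). The lowest tRNA value, 11.7%, was above the highest lncRNA value, 9.77%. Antisense RNA summits had the highest median signal of the classes with over 20 members, 776, and 6 of 30 were in the top 1000 (20.0%, 7.71 to 38.6), an interval that holds the 9.48% of all peaks.

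The strongest summits ranked high in all 3 samples. The summit upstream of lncRNA:CR43423 at 638922 on 3L had a signal value of 10446 and ranked 10 in the IDR list and 10, 11 and 11 in replicates 1 to 3. At the start of lncRNA:CR42719, also on 3L, the summit 20 bp inside the gene ranked 18 overall and 16, 28 and 15 in the replicates. The summit 150 bp inside CR33294 on 3R, annotated as a pseudogene, ranked 16 overall and 14, 24 and 18 by replicate. These 3 kept places within the first 28 of each replicate. The other lncRNA summits in the top 100 were nearest to CR43334 (rank 32), a second one at CR42719 (40), CR45354 (51), CR45217 inside an intron of mask (78), and CR45352 (94). The last ranked 190, 67 and 96 in the replicates, so replicate 1 placed it lowest. Of the 20 strongest summits, 13 were at lncRNAs, 3 at antisense RNAs, 2 at tRNAs, 1 at a snoRNA and 1 at a pseudogene.

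**Figure D2:**
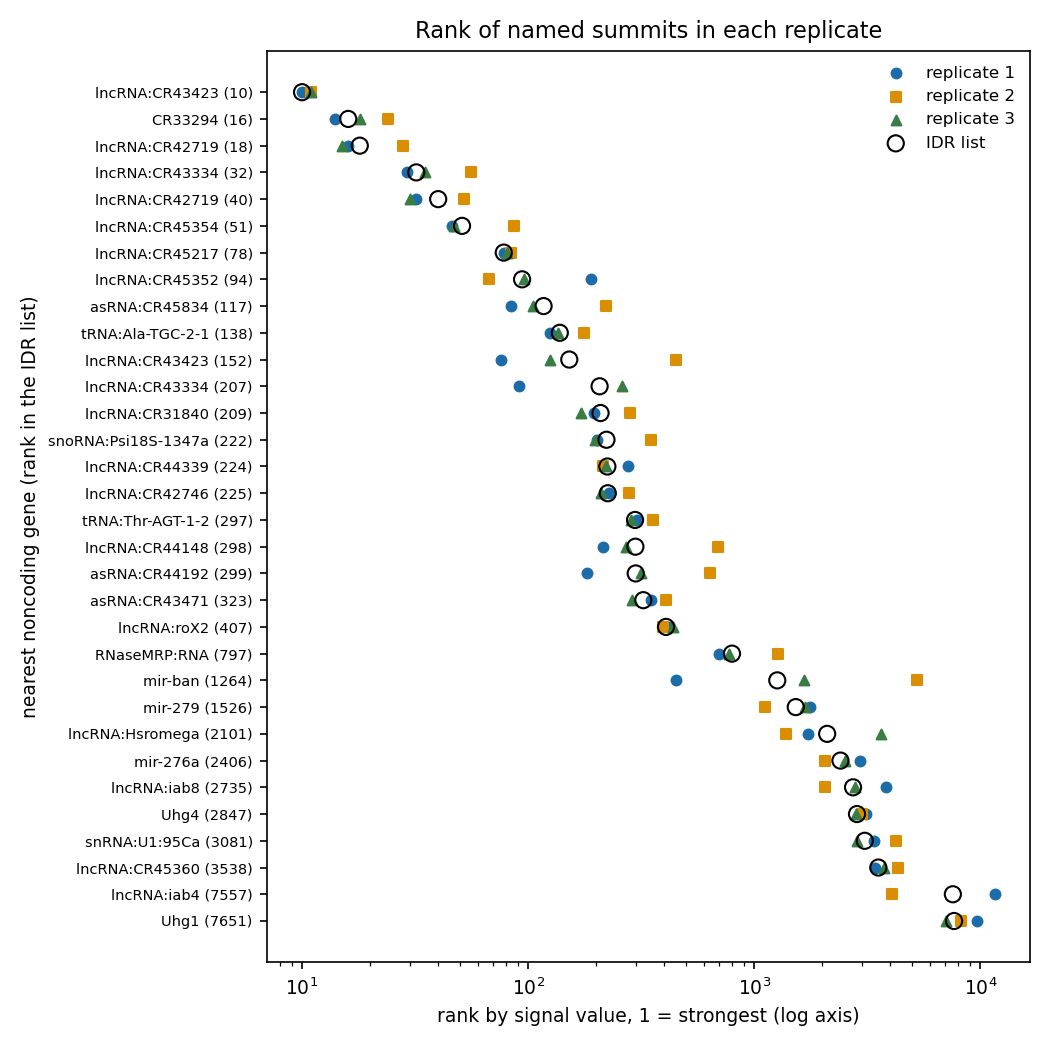
Rank by signal value (log axis, 1 is strongest) of the 20 strongest summits and of those at named RNAs, in each of the 3 replicates and in the IDR list (open circles). The first 10 stay within the first 222 of every replicate, while mir-ban runs from 451 to 5253.

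The bantam neighbourhood on 3L held 9 of the 315 summits and 6 of the 20 strongest. Bantam is a microRNA that promotes growth and a described target of Yorkie. There were 26 IDR summits between 615230 and 644508, and no protein-coding gene lies in that stretch. The 9 were nearest to CR42719, CR43337, CR43334, CR43423 and mir-ban itself. CR43334 runs from 628435 to 643900 on the plus strand and spans mir-ban. Its own start had the summit of rank 32, at 628217, which ranked 29, 56 and 35 in the replicates. The summit at 639707, 7 bp upstream of another CR43334 start, had rank 207 and ranks of 91 and 260 in replicates 1 and 3. Replicate 2 had no summit within 100 bp of it, and its nearest lay 266 bp away. The hairpin's summit, at 642232, varied most, with ranks 451, 5253 and 1652. Leaving the 9 out changed the median signal percentile of the remaining 306 from 54.6 to 53.0, in an alternative chosen after seeing the data.

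**Figure D3:**
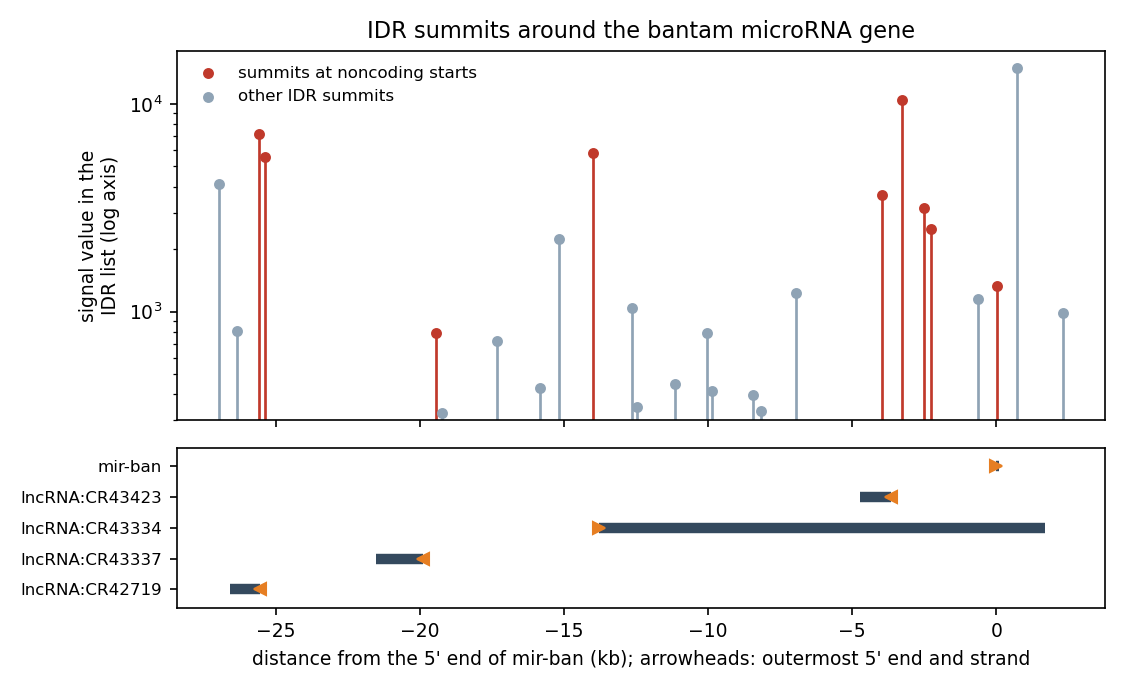
IDR summits by distance from the 5' end of the mir-ban hairpin (kb, plus strand to the right) and signal value (log axis), with the annotated genes beneath. The 9 summits at noncoding starts (red) include 3 of the 4 highest, and the highest of all, at 14840, lies 0.722 kb past the hairpin's 5' end, over 500 bp from any start.

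Several RNAs of known function had a summit. Among the regulatory and enzyme RNAs on the fixed list outside the bantam locus, the highest rank was at roX2, an RNA of the dosage compensation complex that coats the male X chromosome: its summit 44 bp upstream of the start ranked 407 overall and 418, 394 and 436 in the replicates. roX1, the other roX RNA, had no IDR summit within 500 bp, while a pooled-list peak within that distance ranked 15428. RNaseMRP:RNA, the RNA of an enzyme that processes ribosomal RNA, had a summit 189 bp inside the gene that ranked 797, and 698, 1272 and 770 by replicate. The summit lies in an intron of CG10365. Hsromega, a lncRNA induced by heat shock, had a summit at rank 2101 (1730, 1381 and 3617). In the bithorax complex, iab8 had one at rank 2735 (3829, 2063 and 2791) and iab4 one at rank 7557, 499 bp inside a start. Not on the fixed list but in an intron of Ubx, asRNA:PS4 had a stronger one, 40 bp upstream at rank 1676 (2085, 2140 and 1400). The iab4 summit ranked 11619 and 4054 in replicates 1 and 2, and in replicate 3 the nearest summit lay 137 bp away. bxd, in the same complex, had none in the IDR list.

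Among housekeeping RNAs, 1 of 28 spliceosomal snRNA genes had a summit, against 8.08% of all noncoding genes: U1:95Ca, whose RNA recognises the 5' splice site. That summit lay 27 bp upstream and ranked 3081 overall and 3401, 4244 and 2849 in the replicates. The other 4 U1 genes had no IDR summit within 500 bp. Pooled-list peaks within that distance ranked 22154 at U1:21D, 29083 at U1:95Cb and 21882 at U1:95Cc. The U1 genes are close copies, and how reads that match several places were treated is not given in the sources used here. Of 6 further housekeeping RNA genes on the fixed list, RNaseMRP:RNA had a summit. Both 7SK genes, both 7SL genes and RNaseP:RNA had none in the IDR list, while a pooled-list peak at 7SKb ranked 23851. Among Uhg genes, whose introns yield snoRNAs, Uhg5 (rank 2288), Uhg4 (2847) and Uhg1 (7651) had such summits, and Uhg2 had one also near a protein-coding TSS. The summit of rank 2288 was nearest to the snoRNA Me28S-C3227a. Uhg5 starts 281 bp from a protein-coding TSS, and another IDR summit lay nearer to it, at 65 bp. The Uhg4 and Uhg1 summits lay 21 and 46 bp upstream of the start. Of all 84 genes on the fixed list, 14 had a summit of this kind, 1 had one also near a protein-coding TSS and 69 had none in the IDR list. Among the 14, mir-ban and iab4 were not named when the list was planned. Over all noncoding genes, 8.08% had a summit of this kind and 12.8% had any IDR summit.

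The snoRNA summits were led by Psi18S-1347a on 2R, at rank 222 (202, 350 and 197 in the replicates), in an intron of pAbp, which encodes the poly(A)-binding protein. Next was Me18S-C1968, in an intron of Swim, at rank 366 (350, 522 and 349). The strongest of the remaining 10 ranked 2029.

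The tRNA summits were mostly on 1 arm. Of 28, 20 lay on 2R (71.4%, 51.3 to 86.8), against 98 of 290 tRNA genes (33.8%, 28.4 to 39.6). The strongest lay 349 bp inside the TSS coordinate of tRNA:Ala-TGC-2-1 at rank 138 (125, 176 and 135), beyond the short RNA itself, and next came tRNA:Thr-AGT-1-2 at rank 297 (304, 358 and 285). tRNA genes stand in groups and have near-identical copies, so 1 summit can serve several genes, and 40 tRNA genes had a summit of this kind.

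None of the microRNA summits was in the top 1000. After mir-ban (rank 1264) came mir-279 at rank 1526 (1772, 1110 and 1677), mir-4962 at 1621 (1589, 1698 and 1718) and mir-4943 at 1950. The mir-1 hairpin, a muscle microRNA, shared a summit with CR45360 at rank 3538 (3435, 4305 and 3761). That summit lay 36 bp upstream of CR45360 but 499 bp past the 5' end of the mir-1 hairpin. In 1 case, at rank 9468, only the entry of a mature microRNA, mir-9378, brought the summit in.

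Of the lncRNAs, 34 span a microRNA gene on the same strand, and position is the sole ground here for taking them as possible primary transcripts. A summit within 500 bp of an annotated start was found for 15 of the 34 (44.1%, 27.2 to 62.1), against 170 of 1910 other lncRNA genes (8.90%, 7.66 to 10.3). Some of the 34 have several annotated starts, and the summit can lie at an inner one. The lncRNA over mir-276a begins at 10323501 on the plus strand of 3L, and its summit lay at 10364010. On the minus strand of 3R, iab8 begins at 16923231, and its summit lay at 16899883. Among lncRNAs with a single start, 6 of 21 spanning a microRNA gene (28.6%, 11.3 to 52.2) had a summit, against 160 of 1829 others (8.75%, 7.49 to 10.1). This grouping was made after the values had been seen and was given no test. After CR43334, the strongest was the summit 166 bp upstream of CR31044, which spans mir-279 and mir-996, at rank 597 (584, 755 and 572). CR43626, spanning mir-282, followed at rank 1783, with no summit within 100 bp in replicate 1. Others, at ranks from 4547 to 8787, belonged to the lncRNAs over mir-184, mir-14, mir-1000, mir-8, mir-9a, mir-124, mir-277 with mir-34, and mir-bft. Hsromega, iab8 and iab4 also span a microRNA gene, and the lncRNA over mir-276a had its summit at rank 9125. The hairpins of mir-184, mir-8, mir-9a and mir-bft themselves had no IDR summit within 500 bp.

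3 lncRNAs had at least 3 summits each: CR43650, which spans mir-8, with 4, and CR43334 and CR44867 with 3. The 4 at CR43650 ranked 5237, 5467, 7528 and 9855, none of them strong. CR44867 lies in an intron of beat-Ib, and its 3 ranked 1416, 2491 and 10311. One lncRNA, CR44384, lies inside sd itself on X. Its summit, 353 bp inside its start at 15807596, ranked 1244 (1230, 1873 and 1158) and had 1 CATTCC.

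The summits were not crowded within 100 bp of the annotated starts. Within 100 bp of the TSS lay 62 of 315 (19.7%, 15.4 to 24.5), while 20.1% of all positions within 500 bp lie that close. At protein-coding starts, 1620 of 3714 summits (43.6%, 42.0 to 45.2) lay within 100 bp. Within 250 bp lay 181 of the 315 (57.5%, 51.8 to 63.0), against 50.05% of positions and 78.5% of summits at protein-coding starts. The median distance was 220 bp, against 121.5 bp at protein-coding starts. In the top peaks of the replicates, the share within 100 bp was 20.3% ± 0.956 at noncoding and 43.7% ± 0.788 at protein-coding starts (SD, n = 3). These distances are a description, since distance to a TSS chose the summits, and no test was made on them. Upstream of the TSS lay 188 of 315 (59.7%, 54.0 to 65.1), against 66.0% at protein-coding starts. For antisense RNAs it was 27 of 30 (90.0%, 73.5 to 97.9).

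**Figure D4:**
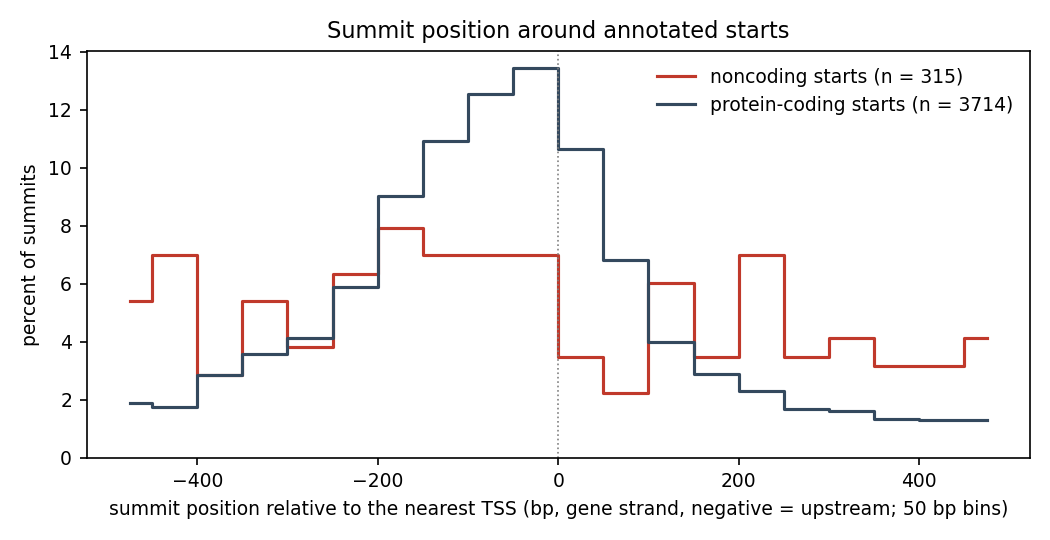
Position of summits relative to the nearest TSS (bp, negative is upstream on the gene's strand, 50 bp bins) as percent of the 315 summits at noncoding starts and of the 3714 at protein-coding starts. The protein-coding curve peaks just upstream of the start, while the noncoding curve is broader, between 2.22% and 7.94% per bin, with its highest bin at -200 to -150 bp and its lowest at 50 to 100 bp.

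The surroundings varied. Between protein-coding genes lay 201 of 315 (63.8%, 58.2 to 69.1), in their introns 108 (34.3%, 29.1 to 39.8) and in their exons 6 (1.90%, 0.702 to 4.10). The median distance to the nearest protein-coding TSS was 3147 bp, with quartiles of 1533 and 7123 bp. By arm, 2R held 88, 2L 73, 3R 66, 3L 65, X 23 and the fourth chromosome none. On X this was 1.49% of the arm's IDR peaks (0.948 to 2.23), against 4.01% on 2R (3.23 to 4.92). Of noncoding genes, 4.13% on X had such a summit (2.58 to 6.25) and 11.3% on 2R (9.18 to 13.7).

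Searched in either orientation up to 100 bp from the summit, the TEA core site CATTCC was present at 69 of 315 (21.9%, 17.5 to 26.9), against 19.8% of all IDR peaks, a share near the background. At protein-coding starts it was 15.2% (14.1 to 16.4), and away from all starts 22.3% (21.3 to 23.4). In windows of the same length 1000 to 1200 bp to either side of the summits at noncoding starts, 21 of 431 held it (4.87%, 3.04 to 7.35), against 8.63% of the flanks of all peaks. CTACTC, a rearrangement of its letters, was at 3.81% of the summits (1.98 to 6.56), against 3.63% of all peaks, and 4.64% of the flanks (2.86 to 7.08). Where present, CATTCC lay a median of 34.5 bp from the summit. Split by signal value into 5 equal groups of 63, from strongest to weakest, these summits held it at 31.7%, 15.9%, 28.6%, 23.8% and 9.52%. The same split of all IDR peaks gave 29.3%, 19.7%, 18.8%, 15.2% and 16.2%. At least 2 copies were at 13 (4.13%, 2.22 to 6.95), against 2.45% of all peaks. By class, it was at 51 of 216 lncRNA summits (23.6%, 18.1 to 29.8), 10 of 30 antisense RNA summits (33.3%, 17.3 to 52.8) and 3 of 28 tRNA summits (10.7%, 2.27 to 28.2).

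In the replicates' top peaks, CATTCC was at 21.98%, 20.1% and 20.8% of summits at noncoding starts, and at 15.3%, 13.996% and 14.5% of those at protein-coding starts. The sets did not overlap across the 3 replicates, and the mean difference was 6.33 ± 0.267 percentage points (SD, n = 3). An exact two-sided sign-flip permutation test gave p = 0.25, the smallest that 3 replicates allow, and 0.429 after Benjamini-Hochberg adjustment over 12 such comparisons, so none of them can reach 0.05. Against summits away from all starts the difference was -1.01 ± 0.155 points, below 0 in all 3 (p = 0.25, exact, adjusted 0.429). Median signal percentile within a replicate differed from protein-coding starts by -1.69 ± 4.58, above 0 in 1 of 3 (exact p = 0.75, adjusted 0.75). That was within the spread between replicates, but with all peaks of each replicate list the difference was -13.8, below 0 in all 3 (exact p = 0.25). Replicates are the same embryo type and share most sites, so these spreads are between samples, not between sites.

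**Figure D5:**
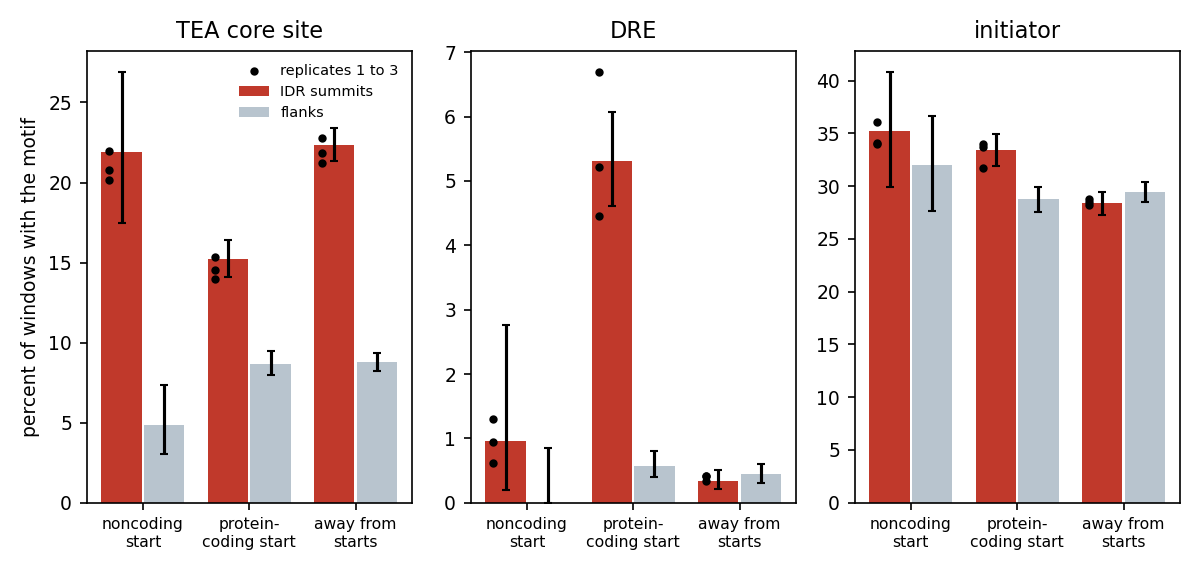
Percent of windows within 100 bp of a summit (red) and of flanking windows of the same length (grey) that hold the TEA core site CATTCC, the DRE TATCGATA or the initiator core TCAGT, with exact 95% intervals and the 3 replicates' top peaks as dots. The TEA site is at 21.9% of summits at noncoding starts and 15.2% at protein-coding starts, and the DRE at 0.952% and 5.30%.

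Sequences of core promoters were searched as well. TATCGATA, the DNA replication-related element (DRE) of many housekeeping promoters, was at 3 of 315 (0.952%, 0.197 to 2.76), against 2.1% of all IDR peaks and 5.30% (4.61 to 6.07) at protein-coding starts. The 3 were near CR45596, CR45806 and CR45297. In the replicates the share was 0.954% ± 0.340 at noncoding and 5.45% ± 1.14 at protein-coding starts, a difference of -4.50 ± 0.802 points, negative in all 3 (SD, n = 3; exact p = 0.25, adjusted 0.429). TCAGT, the core of the initiator at many starts, was at 111 (35.2%, 29.96 to 40.8), against 30.4% of all peaks, 33.4% (31.9 to 35.0) at protein-coding starts and 28.4% (27.3 to 29.5) away from starts. AATTCC was at 71 (22.5%, 18.04 to 27.6), against 23.5%, and GAGAG, read by GAGA factor, at 83 (26.3%, 21.6 to 31.6), against 29.3%. In the flanks of these summits, AATTCC was at 11.4% (8.53 to 14.8) and GAGAG at 16.7% (13.3 to 20.6). At the summits, both were thus above the flanks but near the background of all IDR peaks. Motifs of other embryonic regulators were also near it: TGATAA or AGATAA, the GATA factor site, at 84 (26.7%, 21.9 to 31.9) against 27.8%, TAATTA, a homeodomain core, at 35 (11.1%, 7.86 to 15.1) against 11.4%, CAGGTA, read by Zelda, at 17 (5.40%, 3.17 to 8.50) against 4.23%, and AACCGGTT, read by Grainyhead, at 1 (0.317%, 0.00804 to 1.76) against 0.692%. By distance from the TSS, CATTCC was at 14 of 62 summits within 100 bp (22.6%, 12.9 to 35.0), 19 of 119 over 100 and up to 250 bp away (16.0%, 9.90 to 23.8) and 36 of 134 farther out (26.9%, 19.6 to 35.2), intervals that overlap. TATCGATA was at 3.23% (0.393 to 11.2), 0 of 119 and 0.746% (0.0189 to 4.09) in the same bands, against 9.38% (8.01 to 10.9), 3.08% (2.21 to 4.18) and 0.627% (0.204 to 1.46) at protein-coding starts. The sign thus turned in the outermost band, where the intervals overlap, and protein-coding summits lay nearer their starts. A match describes the letters in a window and not a site of binding.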

How the data were processed

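The data were peak lists on dm6, 1 per replicate, 1 for pooled replicates and 1 IDR list, derived from alignments set against a single control alignment per the file headers. That control was not analysed here. Neither the aligner, the caller nor the IDR threshold is stated: they are not given in the sources used here. The signal value of each peak is the authors' own deposited signal. Each replicate list and the pooled list holds 30000 peaks, so their length does not measure depth, which is unknown. For comparison across replicates the top 10553 peaks of each were used.

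Genes and TSSs came from Ensembl release 115 on BDGP6.54, without transposable elements, and sequence from the RefSeq copy of Release 6 of the genome. Of 6945 plus-strand genes, 99.6% had ATG at the first annotated coding base, and 0 peaks passed the end of an arm. Summits are 1-based. Summits within 100 bp were called shared. RNA classes follow biotype and symbol prefix, and 481 mature microRNA entries counted as noncoding starts. Flanks within 500 bp of another IDR summit were left out. In all, 10 motifs were sought, each on both strands. Differences between sets were tested over replicates with an exact two-sided sign-flip permutation test. Lists and members were chosen with earlier results of these data known. Named RNAs are the 20 strongest summits, the strongest of each class, those at a fixed list of 84 genes and genes with 3 or more summits. Symbols on that list were matched to the annotation, and other RNAs were named, after the values were seen. The member rule, motif search and summit matching were tested on simulated data. Scripts ran in Python 3.11.15 with scipy 1.17.1 for intervals, pandas 2.3.3 and numpy 2.4.6 for tables, and matplotlib 3.10.9 for plots.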

Additional observations from a re-analysis of the deposited data

How the results depend on the processing

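Within 250 bp of a noncoding TSS, 181 summits remained and 4.82% of noncoding genes had one; within 1000 bp there were 546 summits. With signal above the IDR median, 177 remained, of which 97.2% were in all 3 replicates and 66.7% upstream, at a median signal percentile of 75.8. The filter itself raises that percentile. The share in all 3 replicates was 73.3% with matching within 50 bp, 96.2% within 200 bp and 69.2% in top peaks only, and it was 93.3% to 94.3% when 1 replicate was left out. Leaving 1 out asks for fewer matches, so that share could not fall. CATTCC was at 13.0% of summits within 50 bp and 28.3% within 200 bp.

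The CATTCC difference from protein-coding starts was 6.18 to 6.43 points without 1 replicate, and turned to -1.01 against summits away from starts. The difference in median signal percentile was -3.62 to 0.839 without 1 replicate, with the positive value when replicate 2 was left out, and 7.26 against summits away from starts. With all peaks of each replicate list it was -13.8, the same direction. The causes were not tested. Over 1000 bp from protein-coding starts lay 273 summits, outermost gene ends only gave 332, and leaving out the bantam region left 306. In each, the share in all 3 replicates, the CATTCC share, the upstream share and the median signal percentile stayed within their intervals. Differences between sets were taken within each replicate, and with a single group there is no pairing across conditions. With 3 replicates no p below 0.25 can occur.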
